A study of Mus musculus with 2 samples.

Results

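The protein phosphatase subunit genes of the mouse were examined as one family: the protein-coding genes of the RefSeq annotation of GRCm38.p6 whose symbol begins with Ppp and a digit. The symbols gave 77 members among 21887 protein-coding genes. Of these, 11 encode catalytic subunits and the other 66 are taken here as the regulatory class, which includes the 7 glycogen-targeting genes Ppp1r3a to Ppp1r3g. The 66 also hold Ppp1ccb, a retrogene copy of the catalytic PP1 gamma gene, since every member outside the 11 named catalytic genes was put in this class. Members were chosen by symbol alone and not selected on a score or a distance, but the family itself was chosen by earlier results on summits near these genes, so all counts below are descriptions without a test.

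Sites of Hnf4a, a nuclear receptor of the hepatocyte, were mapped by ChIL-seq, the labelling of chromatin by integration. In this assay an antibody carries a DNA probe to the bound protein, Tn5 transposase inserts the probe nearby, and the tagged DNA is transcribed inside the fixed cell. All libraries came from iHepCs, hepatocyte-like cells: embryonic fibroblasts of wild-type C57BL/6J mice into which retroviruses had brought Foxa2 and Hnf4a. There was 1 group of 2 samples, labelled as biological replicates, and no control sample was analysed here. Hnf4a was thus both the mapped protein and an introduced one, and retroviral and endogenous protein cannot be told apart. The cells grew in hepato-medium with serum, insulin, dexamethasone, nicotinamide, hepatocyte growth factor and epidermal growth factor. The lot number written in the peak names is the same for both libraries. Only genomic DNA was measured, so neither the hepatocyte-like state nor the RNA of any member could be checked. The deposited lists held 21283 summits, the 1-bp highest points of called peaks, in replicate 1 and 24097 in replicate 2. Each summit carries the authors' −log10 q, called the score here. Read depth per library is unknown. A shared region is a place where both replicates had a summit within 100 bp, and 9193 such regions were found.

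The PPP phosphatases remove phosphate from serine and threonine. A few catalytic subunits work with many regulatory subunits, which set the substrate and the place in the cell. PP1 is brought to glycogen by the Ppp1r3 proteins, PP2A consists of a scaffold, a catalytic subunit and an exchangeable B subunit, and calcineurin (PP2B) is switched on by calcium through calmodulin. In liver, PP1 at the glycogen particle activates glycogen synthase and inactivates glycogen phosphorylase.

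The sequences below are those of 5 member promoters in which both replicates placed a summit, shown because they are the 4 catalytic promoters with a site and a regulatory one, Ppp2r5a, with nearly equal scores. They comprise the 250 bases before the annotated start site, 5′ to 3′ on the gene's strand, from the RefSeq promoter table of GRCm38.p6. Capitals mark the bases from one replicate's summit to the other's. Ppp1cb lies on the plus strand (chr5:32458720-32458969), Ppp2ca on the plus strand (chr11:52098574-52098823), Ppp3cb on the minus strand (chr14:20546574-20546823), Ppp6c on the minus strand (chr2:39226350-39226599) and Ppp2r5a on the minus strand (chr1:191397042-191397291).
Ppp1cb: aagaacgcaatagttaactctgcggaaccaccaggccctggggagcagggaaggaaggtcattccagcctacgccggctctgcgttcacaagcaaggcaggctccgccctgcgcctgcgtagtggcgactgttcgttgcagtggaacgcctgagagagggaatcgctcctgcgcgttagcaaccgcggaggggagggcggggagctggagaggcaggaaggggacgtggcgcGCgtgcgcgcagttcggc
Ppp2ca: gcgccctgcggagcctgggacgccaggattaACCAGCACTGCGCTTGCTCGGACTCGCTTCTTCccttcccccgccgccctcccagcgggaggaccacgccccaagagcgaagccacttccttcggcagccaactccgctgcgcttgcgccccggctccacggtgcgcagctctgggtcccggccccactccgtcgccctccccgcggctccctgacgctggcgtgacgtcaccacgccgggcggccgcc
Ppp3cb: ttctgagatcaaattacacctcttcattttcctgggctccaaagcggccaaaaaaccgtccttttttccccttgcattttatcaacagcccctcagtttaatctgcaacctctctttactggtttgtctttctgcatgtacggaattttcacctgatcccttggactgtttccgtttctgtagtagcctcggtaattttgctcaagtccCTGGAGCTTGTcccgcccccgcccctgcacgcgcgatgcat
Ppp6c: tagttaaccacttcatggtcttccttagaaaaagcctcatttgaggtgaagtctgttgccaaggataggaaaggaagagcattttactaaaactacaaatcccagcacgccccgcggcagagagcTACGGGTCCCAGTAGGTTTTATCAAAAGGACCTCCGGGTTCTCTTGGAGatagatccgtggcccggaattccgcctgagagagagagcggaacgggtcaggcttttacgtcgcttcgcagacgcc
Ppp2r5a: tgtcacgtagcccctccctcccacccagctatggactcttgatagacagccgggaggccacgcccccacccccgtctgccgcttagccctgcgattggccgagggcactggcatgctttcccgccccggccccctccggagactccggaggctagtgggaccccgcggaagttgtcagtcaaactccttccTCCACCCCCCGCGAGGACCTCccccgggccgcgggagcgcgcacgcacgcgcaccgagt
The summit pairs were 1 bp apart in Ppp1cb and 10 bp apart in Ppp3cb. In Ppp2r5a they were 20 bp apart, in Ppp2ca 32 bp and in Ppp6c 48 bp.

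Across the family, both replicates placed summits close to many members, and 32 of 77 had a shared region inside the gene or within 10 kb of an end. In replicate 1, 47 members (61.0%) had at least 1 summit in that window, where 46.4% of all protein-coding genes did. In replicate 2 the count was 40 members (51.9%), against 49.2% of all genes. Replicate 2 alone thus lay near the level of all genes, and replicate 1 above it. The replicates met at 37 members, while 10 had summits of replicate 1 alone, 3 of replicate 2 alone and 27 of neither.

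Counting shared regions alone, 20 members (26.0%) had one inside the gene, where 13.7% of all protein-coding genes did. Inside or within 1 kb there were 27 members (35.1%), against 19.0% of all genes. Inside or within 10 kb there were 32 (41.6%), against 26.0%. Inside or within 50 kb there were 54 (70.1%), against 47.9%. The share of members was higher than that of all genes in each of these windows. Leaving gene interiors aside and counting from the gene ends only, 28 members (36.4%) had a shared region within 10 kb, against 20.6% of all genes.

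The catalytic genes had shared regions more often than the regulatory ones in every window counted, although there are only 11 of them. Inside the gene, 5 of 11 catalytic genes (45.5%) and 15 of 66 regulatory genes (22.7%) had one. Inside or within 1 kb the counts were 8 catalytic (72.7%) and 19 regulatory genes (28.8%). Inside or within 10 kb they were 9 catalytic (81.8%) and 23 regulatory genes (34.8%). Within 50 kb all 11 catalytic genes and 43 regulatory genes (65.2%) had one. In a count added after seeing the data, leaving out the retrogene Ppp1ccb, which had no summit of either replicate within 10 kb, gave 23 of 65 regulatory genes (35.4%). Counting it as catalytic gave 9 of 12 (75.0%). The glycogen-targeting genes stood at the other end, with 0 of 7 inside or within 10 kb and 2 of 7 (28.6%) within 50 kb. The shares of all protein-coding genes in these windows were 26.0% and 47.9%. The 5 PP4 regulatory genes, and Ppp1r15a and Ppp1r15b, also had no shared region within 10 kb.

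**Figure D1:**
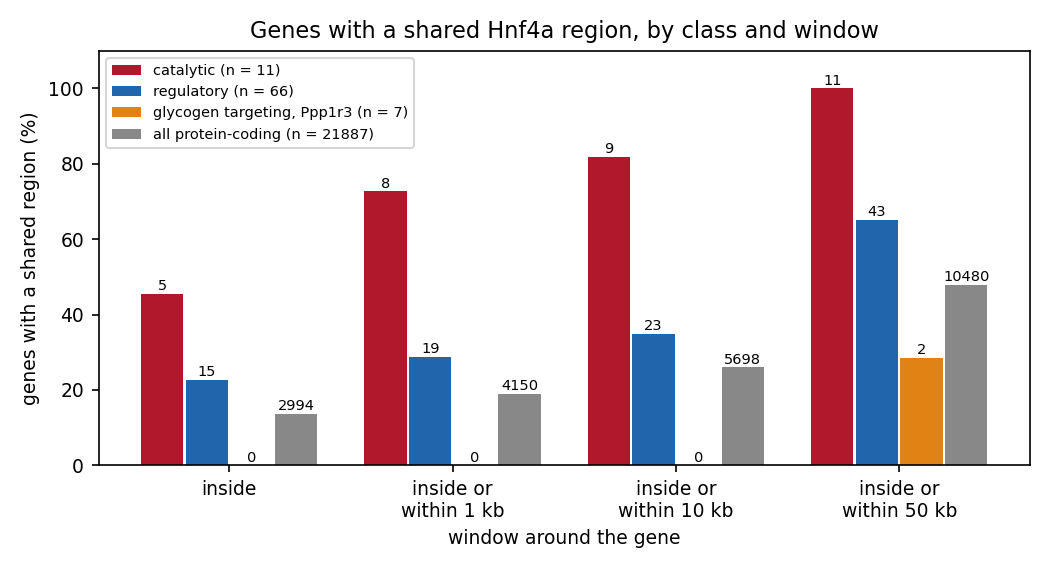
Percent of genes with a shared Hnf4a region (vertical axis) in 4 windows (horizontal axis) for catalytic, regulatory, glycogen-targeting and all protein-coding genes, with the number of genes above each bar; the 7 glycogen-targeting genes are part of the 66 regulatory ones. At 10 kb the bars stand for 9, 23, 0 and 5698 genes.

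A long gene has more room for a summit, so lengths are given beside these counts. The median length was 23.9 kb for catalytic, 22.3 kb for regulatory, 11.6 kb for glycogen-targeting and 17.2 kb for all genes. Regulatory genes with a shared region at 10 kb had a median of 41.1 kb, and those without one 15.7 kb. Among genes of over 20 to 50 kb, 6 of 7 catalytic and 8 of 19 regulatory genes had a region, against 27.7% of all genes of that length. Among genes of over 5 to 20 kb it was 1 of 1 catalytic and 2 of 16 regulatory genes, against 24.0% of all genes. Within that class the regulatory genes were below the level of all genes. Up to 5 kb the order was the reverse, with 0 of 1 catalytic and 3 of 13 regulatory genes against 10.5% of all genes. Over 50 to 100 kb it was 1 of 1 catalytic and 3 of 9 regulatory genes against 36.5%, and over 100 kb 1 of 1 and 7 of 9 against 49.5%. Outside the class of over 20 to 50 kb there is thus only 1 catalytic gene per class. Per megabase of gene plus 10 kb on each side, members held 9.79 shared regions (52 in 5.31 Mb), where all protein-coding genes held 4.83. Catalytic genes held 15.6 per Mb and regulatory genes 8.81 per Mb. The part of gene length in the difference between the classes was not tested beyond these strata.

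**Figure D2:**
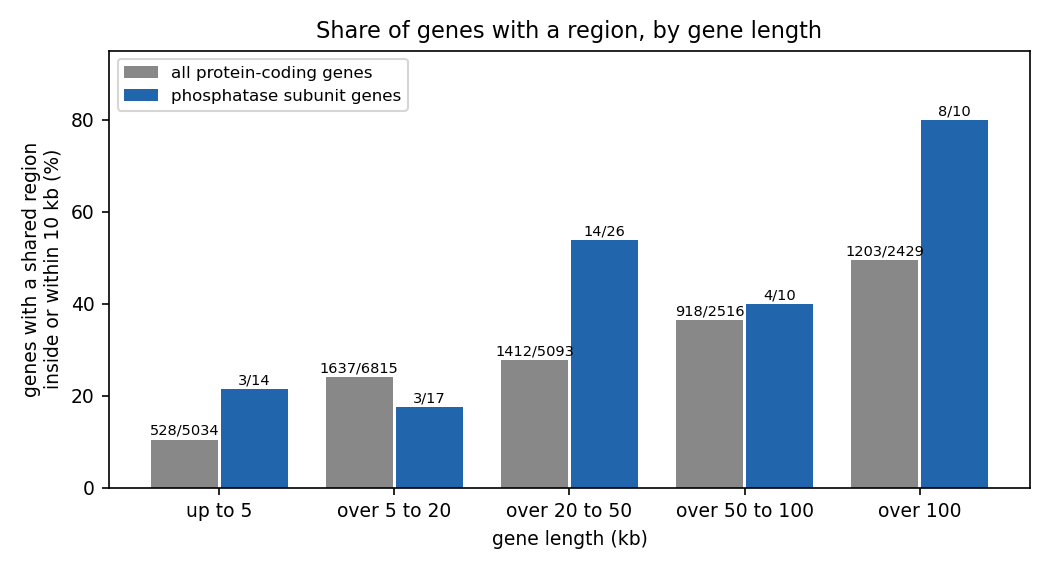
Percent of genes with a shared region inside or within 10 kb (vertical axis) by gene length in kb (horizontal axis), for all protein-coding genes (grey) and the 77 members (blue), with genes having a region over genes in the class printed above each bar. In the longest class 8 of 10 members had a region, against 49.5% of all genes.

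Ppp1ca, Ppp1cb and Ppp1cc encode the 3 catalytic subunits of PP1, alpha, beta and gamma. Ppp1cb had the tightest pair of the catalytic genes. The summits lay 17 bases before the start site in replicate 1 (score 11.3) and 18 in replicate 2 (score 19.8). The shared region of Ppp1cc lay inside the gene, 8757 bp downstream of its start site, with scores of 14.6 and 8.04. Close to the Ppp1cc start the lists also held 1 summit each, 498 bp upstream in replicate 1 and 299 bp upstream in replicate 2, too far apart to count as shared. Ppp1ca, a short gene of 3246 bp, had no shared region within 10 kb. A replicate 1 summit with a score of 5.56 lay 338 bp from Ppp1ca, and its nearest shared region (15.4 and 28.9) lay 36845 bp away inside Pold4, a DNA polymerase delta subunit gene. The 3 PP1 genes thus differed: beta had its site at the start, gamma inside the gene and alpha none close by in both replicates.

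Ppp2ca and Ppp2cb encode the alternative catalytic subunits of PP2A. In Ppp2ca the paired summits lay 187 bases before the start site in replicate 1 (score 8.05) and 219 in replicate 2 (score 7.00). Ppp2cb had a replicate 1 summit 5771 bp away (score 6.15) with no counterpart. The nearest shared region of Ppp2cb (6.28 and 15.6) was 40970 bp away, inside the glutathione reductase gene Gsr. Only Ppp2ca of this pair therefore had a shared site within 10 kb.

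All 3 genes of the calcineurin A subunit had shared regions. Ppp3cb had one with its midpoint 36 bp upstream of the start, with scores of 17.7 and 10.0. Ppp3ca, at 268014 bp the longest catalytic gene, had 3 inside, with scores of 7.71 and 6.50, 5.30 and 10.5, and 11.1 and 4.51 in replicates 1 and 2. One more region (7.22 and 9.16) lay 28764 bp outside Ppp3ca. Ppp3cc, whose product is best known from testis, had 1 region inside the gene with scores of 10.8 and 8.97. The first of the Ppp3ca regions lay 302 bp from a gene end, while the other 2 inside the gene and the region of Ppp3cc lay 14083 to 124738 bp from the nearer end. The promoter table used here gave a start site for Ppp3cb alone of the 3.

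Of the remaining catalytic genes, Ppp6c, which encodes the PP6 catalytic subunit, had a region centred 101 bp before its start with scores of 11.3 and 21.4. Its replicate 2 score was the highest among the 12 catalytic regions. Ppp5c encodes PP5, which carries its own regulatory repeats. It had a region 530 bp downstream of its start (5.05 and 6.81) and another 10672 bp downstream (3.83 and 7.45), both low in replicate 1. The region counted for Ppp4c, the PP4 catalytic gene, lay 6704 bp away inside the aldolase gene Aldoa, with scores of 8.42 and 13.0, and is as much a region of that gene.

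None of the 7 glycogen-targeting genes had a shared region within 10 kb, where 26.0% of all genes did. Ppp1r3b encodes GL, the main such subunit of liver. Replicate 2 alone placed summits 4927 bp (score 5.29) and 9851 bp (score 6.70) from Ppp1r3b. Its nearest shared region (6.60 and 12.7) was 44532 bp away. Ppp1r3e had the closest shared region of the group at 16372 bp (10.2 and 11.5), and this region lay 233 bp from Pabpn1, a poly(A)-binding protein gene. For Ppp1r3f, replicate 1 alone had a summit 295 bp upstream of the start with a score of 8.40, and the nearest shared region was 373699 bp off.

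The other glycogen-targeting genes had no summit of either replicate within 10 kb. For Ppp1r3c, which encodes PTG (protein targeting to glycogen), the nearest shared region was 177834 bp away. For Ppp1r3a, the muscle form, it was 153941 bp away, for Ppp1r3d 248211 bp and for Ppp1r3g 116438 bp. These genes are short, with Ppp1r3a the longest at 41.5 kb. At 10 kb the group's windows covered 0.231 Mb with 0 shared regions, and at 50 kb 0.791 Mb with 2, or 2.53 per Mb, where all genes had 4.51 per Mb.

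**Figure D3:**
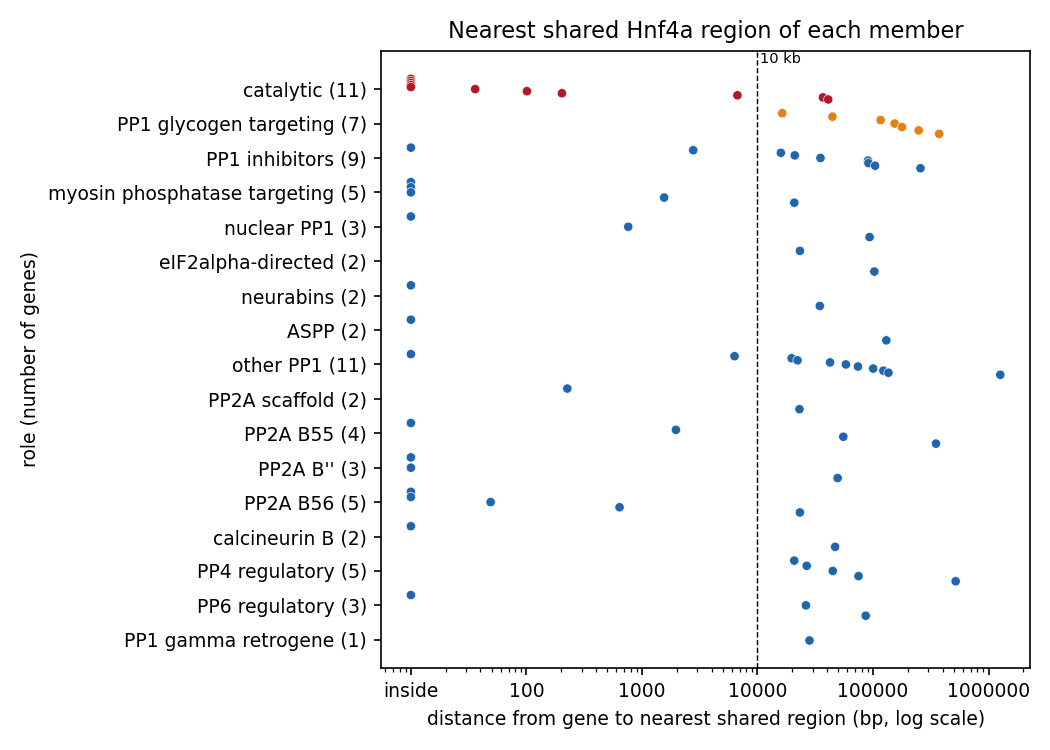
Distance in bp on a log axis (horizontal) from each of the 77 members to its nearest shared region, by role (vertical axis, number of genes in brackets), with catalytic genes in red, glycogen-targeting genes in orange and the rest in blue; points at the left edge have a region inside the gene and the dashed line is 10 kb. The 7 orange points lie between 16372 and 373699 bp, all to the right of the line.

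The 41 Ppp1r genes, regulators of PP1, had a shared region within 10 kb in 12 cases (29.3%), close to the 26.0% of all genes. The myosin phosphatase targeting subunits direct PP1 to myosin and related substrates, and their genes are long, with a median of 99.6 kb. Of all genes of over 50 to 100 kb 36.5% had a shared region within 10 kb, and of those over 100 kb 49.5%. Of the 5 myosin phosphatase targeting genes, 4 had one. Ppp1r16b, which encodes the endothelial subunit TIMAP, had the best-ranked of these (22.9 and 17.7), 1557 bp beyond the gene and 208 bp from Fam83d. Ppp1r12c had 2 regions, of which the stronger (16.0 and 7.76) lay inside its neighbour Eps8l1 and the weaker (5.19 and 6.04) inside the gene. Ppp1r16a had a region inside the gene (8.42 and 5.58), another inside the alanine aminotransferase gene Gpt 3151 bp away (5.59 and 5.77), and 1 more 11506 bp away (16.9 and 11.3). Ppp1r12b had a region inside the gene (6.92 and 5.67) and one centred 146 bp before its start (7.05 and 7.98).

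Ppp1r12a, which encodes the myosin phosphatase subunit MYPT1, was the exception, with no shared region within 10 kb but 3 within 50 kb. The nearest of the 3 scored 11.8 and 7.43 at 20838 bp. The next, 48481 bp away, scored 26.6 and 19.5 with summits 1 bp apart, and the last, at 49890 bp, scored 16.8 and 22.3. Inside Ppp1r12a there was a replicate 1 summit (6.61), and 668 bp outside it a replicate 2 summit (3.84), which did not pair.

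Of the 9 PP1 inhibitor genes, 2 (22.2%) had a shared region within 10 kb, close to the 26.0% of all genes. Ppp1r14b, a small inhibitor of the PHI family, had 1 region 2779 bp away with scores of 20.7 and 15.8, inside a gene model named LOC114841036. Ppp1r11, which encodes inhibitor-3, had a region 646 bp downstream of its start (8.18 and 7.69) and a further 2 within 50 kb (12.1 and 18.0 at 16461 bp, and 9.60 and 11.2 at 25532 bp). Among those without one, the nearest shared region was 257559 bp from Ppp1r1a (inhibitor-1) and 90498 bp from Ppp1r1b (DARPP-32).

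Of the nuclear PP1 regulators, Ppp1r7, which encodes Sds22, had a region 761 bp away inside its neighbour Pask (11.7 and 7.23). Ppp1r8 (NIPP1) had one 41 bp upstream of its start (11.3 and 5.01) and another inside the gene (6.15 and 6.40). Ppp1r10 (PNUTS) had 2 summits of replicate 1 and none of replicate 2. Of the ASPP genes, Ppp1r13l, which encodes the p53 inhibitor iASPP, had a region centred 40 bp before its start (11.6 and 7.06). Ppp1r13b had none. Neither Ppp1r15a (GADD34) nor Ppp1r15b (CReP), which direct PP1 to the initiation factor eIF2alpha, had a shared region within 10 kb.

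Further PP1 regulators with well-ranked regions were Ppp1r21, Ppp1r9a and Ppp1r35. Ppp1r21, which encodes an endosomal protein, had 3 regions within 10 kb and 1 more within 50 kb. Its strongest lay inside the gene, 51169 bp from the start, with scores of 13.2 and 16.1, and a weaker one lay 257 bp before the start (5.33 and 5.09). Ppp1r9a encodes neurabin-1, an actin-binding scaffold best known from neurons. It had 2 regions inside its 262790 bp, scoring 13.1 and 8.93, and 7.30 and 7.62. The regions of Ppp1r35, a centrosomal protein gene, lay inside Mepce 6332 bp away (8.35 and 17.3) and inside Zcwpw1 7526 bp away (10.8 and 7.05).

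The PP2A regulators had shared regions more often than the PP1 regulators, at 9 of 14 genes (64.3%) within 10 kb, against 26.0% of all genes. The PP2A regulators were also longer than the PP1 regulators, with a median of 43.7 kb against 15.7 kb. Of all genes of over 20 to 50 kb 27.7% had a shared region within 10 kb, and of those over 100 kb 49.5%. The B56 genes, whose products direct PP2A to short docking motifs, gave 4 of 5. Ppp2r5e had the best-ranked region of the whole family within 10 kb: it lay inside the gene and scored 21.8 in replicate 1 and 26.8 in replicate 2. Another region of Ppp2r5e (14.1 and 10.9) lay 3533 bp outside the gene. Ppp2r5c had a pair of regions upstream, at 5166 bp (18.5 and 14.4) and 1018 bp (19.2 and 9.66) before a start site, and a weaker one beyond the other end (7.52 and 6.29). In Ppp2r5d one lay inside (12.1 and 18.5) and one 2032 bp away in Mea1 (7.35 and 14.8).

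Ppp2r5a had a single region, 49 bp before the start, with almost equal scores of 8.97 and 9.01. Ppp2r5b had no shared region within 10 kb, although its nearest summit pair (8.06 and 8.08) was 105 bp apart, just past the limit of 100 bp. Of the scaffold genes, Ppp2r1a had a region 226 bp before its start (9.87 and 6.22). Ppp2r1b had 2 replicate 1 summits only. Of the B55 genes, Ppp2r2a had its stronger region (17.0 and 9.45) 4993 bp away and 186 bp from the mitophagy gene Bnip3l, and its weaker one (4.60 and 6.44) at 1968 bp. Ppp2r2b, at 414265 bp the longest member, had 2 regions with scores of 8.06 and 6.18, and 8.10 and 4.70. Ppp2r3a, of the B'' group, had 1 region inside the gene (12.3 and 7.77). Ppp2r3c had one 249 bp downstream of its start (6.60 and 5.63), which also lay inside the gene Prorp.

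Among the regulators of calcineurin, PP4 and PP6, 2 of 10 genes (20.0%) had a shared region within 10 kb, close to the 26.0% of all genes. In each replicate alone 5 of the 10 (50.0%) had a summit there, against 46.4% and 49.2% of all genes. Ppp3r1, which encodes the calcium-binding calcineurin B subunit, had 3 inside the gene. The first, 1150 bp downstream of the start, scored 20.6 in replicate 1 and 7.21 in replicate 2. The others scored 6.67 and 14.3, and 7.77 and 7.09. Ppp6r3 had 1 region inside its 121106 bp with scores of 5.41 and 4.33. None of the 5 PP4 regulatory genes had one, although Ppp4r1 had 2 summits of each replicate, in pairs 144 and 261 bp apart.

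The limit of 10 kb fell in a gap of the distances. The members farthest out but still counted were Ppp4c at 6704 bp, Ppp1r35 at 6332 bp and Ppp1r14b at 2779 bp. In each of these the region lay inside another gene. The nearest not counted were Ppp1r2, which encodes inhibitor-2, at 15927 bp (10.8 and 8.68), Ppp1r3e at 16372 bp and Ppp1r36 at 19737 bp (24.2 and 12.8).

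Members with summits of both replicates did not always share a region. Besides Ppp1r12a, Ppp2r5b and Ppp4r1, this held for Ppp1r37, with summits 142 bp apart (4.09 and 4.38), and Ppp4r4, with summits 17489 bp apart. Around the members each replicate had 96 summits within 10 kb, of which 52 (54.2%, 95% exact binomial interval 43.7 to 64.4) had a counterpart. Around all protein-coding genes 43.2% of replicate 1 summits (42.4 to 44.0) and 38.8% of replicate 2 summits (38.1 to 39.6) had one. These intervals cover counting error only and take summits as independent, although several lie around the same gene. The interval of the members overlaps that of all genes in replicate 1 and not in replicate 2. This was not taken as a test. Since the family was chosen by earlier results on these summits, the shares are descriptions.

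The 52 member regions had lower median scores than all shared regions. Their median was 8.42 in replicate 1 (3.83 to 22.9) and 7.53 in replicate 2 (3.60 to 26.8), below the 9.93 and 9.61 of all 9193 shared regions. The 12 catalytic regions had medians of 9.63 and 8.51 and the 40 regulatory ones 8.39 and 7.22, with widely overlapping ranges. Over the 52 regions the scores of the replicates had a Spearman's rho of 0.548, given as a description since both lists come from the same assay and the regions are not independent. For 41 of the 52 regions a member was the nearest protein-coding gene, and 28 lay inside the member.

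**Figure D4:**
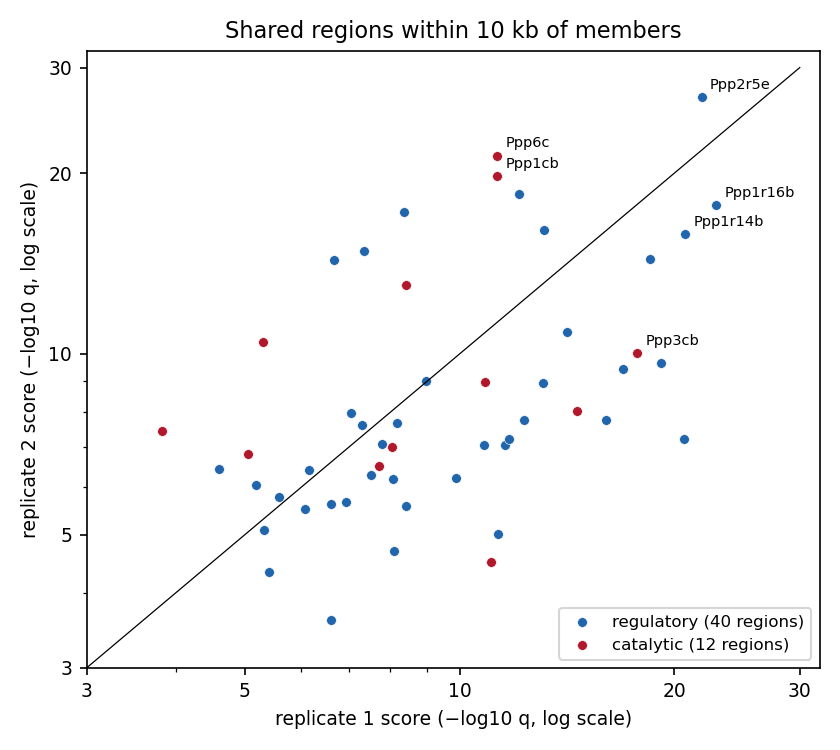
Score (−log10 q, log axes) in replicate 1 (horizontal) and replicate 2 (vertical) of the 52 shared regions inside or within 10 kb of members, catalytic in red and regulatory in blue, with the line of equal scores. Of the 52 points, 33 lie below the line, with a higher score in replicate 1, and Ppp2r5e is at the top with 21.8 and 26.8.

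Regions were also placed against annotated start sites, for the 61 members with an entry in the promoter table. Within 1 kb of a start lay a region of 14 members, of which 11 were upstream. In the promoter window itself, from 250 bases before the start to 50 from it on, a region was present for 4 of 7 catalytic genes (57.1%), namely Ppp1cb, Ppp2ca, Ppp3cb and Ppp6c. It was present for 5 of 49 regulatory genes outside the glycogen group (10.2%), namely Ppp1r12b, Ppp1r8, Ppp1r13l, Ppp2r1a and Ppp2r5a, and for 0 of 5 glycogen-targeting genes. Of all 17492 protein-coding genes with an entry, 5.81% had one. The catalytic genes Ppp1ca, Ppp2cb, Ppp3ca and Ppp3cc had no entry and are outside the 7, so 57.1% does not stand for all 11. The nearest shared region was 36845 bp from Ppp1ca and 40970 bp from Ppp2cb. The region closest to a gene end lay 302 bp from it in Ppp3ca and 14083 bp from it in Ppp3cc. The 8 windows of the catalytic genes had a median G+C content of 66.5% (51.0 to 73.0), the 5 of the glycogen-targeting genes 65.3% (41.0 to 77.0) and all windows 56.3%. The part of base composition in these counts was not tested.

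**Figure D5:**
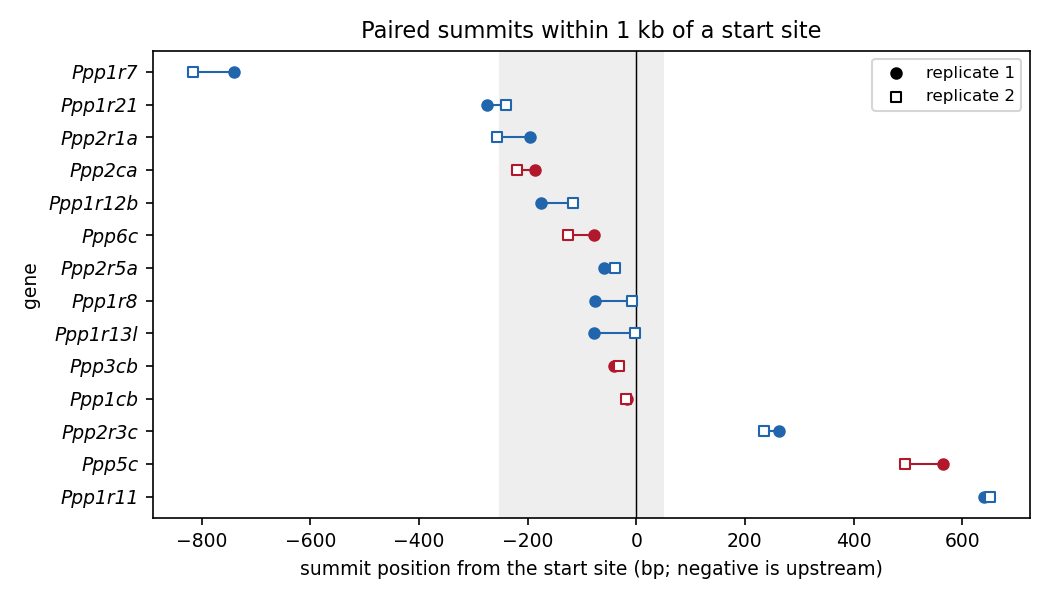
Position in bp of the paired summits of replicate 1 (filled circles) and replicate 2 (open squares) from the annotated start site (vertical line; negative is upstream) for the 14 members with a region within 1 kb of a start, catalytic in red and regulatory in blue, with the promoter window shaded. The pair of Ppp1cb, with its midpoint at −18 bp, is centred closest to its start.

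The promoter windows were searched on both strands for CAAAGTCCA, a textbook HNF4 word. It occurred in 96 of 21263 windows of protein-coding genes (0.451%) and in 4 of the 1070 windows holding a shared region (0.374%). Of the 74 member windows 1 held it, that of Ppp1cc, and none of the 10 member windows with a shared region did. In Ppp1cc the word spanned bases 248 to 240 before the start (plus strand, chr5:122158025-122158274), shown here in capitals because it is the only member window with the word.
Ppp1cc: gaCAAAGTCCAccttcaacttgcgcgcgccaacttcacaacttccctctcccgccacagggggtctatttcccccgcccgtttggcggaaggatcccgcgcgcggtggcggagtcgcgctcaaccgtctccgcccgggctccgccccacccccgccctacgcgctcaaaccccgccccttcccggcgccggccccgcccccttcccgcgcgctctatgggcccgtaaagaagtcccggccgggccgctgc
The wider word CAAAGTNCA, which overlaps the first, was in 1.31% of all windows and in the same Ppp1cc window alone among members. A match is a description of letters, and its absence says only that the letters are not in the window. The word GGGCGG, which belongs to Sp and KLF factors, was added after seeing the data. It was in 46.2% of all windows and 76.6% of those holding a shared region. Of the 74 member windows 49 (66.2%) held it, and of the 10 member windows holding a region 9 did. These 10 windows belong to 9 genes, since the windows of Ppp1r8 overlap and share a region.

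Genes that work with the family were counted from 3 lists chosen, like the family, with earlier results known. Of 20 glycogen enzymes and their regulators, 6 (30.0%) had a shared region inside or within 10 kb, near the 26.0% of all genes. Gsk3a and Gsk3b, the kinases that inhibit glycogen synthase, had the best-ranked regions, with scores of 12.6 and 18.7, and 12.1 and 11.6. Next came Phkg2, the liver catalytic subunit of phosphorylase kinase (10.2 and 10.4), and Ugp2, which makes UDP-glucose (8.53 and 5.46). The glycogen synthase and phosphorylase genes themselves had none within 10 kb.

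Of 21 partners of the phosphatases under other symbols, 11 (52.4%) had a shared region within 10 kb, against 26.0% of all genes. Lcmt1, which methylates the PP2A catalytic subunit, had scores of 31.4 and 45.3 at 7701 bp, above any member's region within 10 kb. Phactr4, a PP1 and actin binder, scored 17.5 and 21.0, Rcan1, a calcineurin regulator, 34.0 and 15.2, and Ensa, an inhibitor of PP2A-B55, 12.2 and 26.9. Of 23 genes of the PPM and related phosphatases, 11 (47.8%) had a region, led by Phlpp2 (22.5 and 21.2), Phlpp1 (23.6 and 18.3), Ppm1k (16.8 and 17.9) and Ppm1l (9.60 and 18.0). The median gene length of the partners was 52.6 kb and of the PPM list 30.9 kb, both above the 17.2 kb of all genes.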

How the data were processed

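ChIL-seq libraries of 2 iHepC samples in 1 group were used. Per the submitters' processing notes, the tools were MACS2 2.2.9.1, HISAT2 2.0.5 and fastp 0.23.4, with build mm10. A control library and duplicate removal are not given in the sources used here. Deposited by the authors was 1 list of 1-bp summits per sample with a −log10 q-value each, and 0.01 is the q limit in the peak names. The scores are the authors' and served only to rank, filter and describe summits. The lists hold no read counts, so depth is unknown, and binomial intervals cover counting error only.

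Both lists were joined, and summits up to 100 bp apart were merged, giving 36186 regions, of which 9193 held a summit of each replicate. Distances run from a region's midpoint to the RefSeq gene of GRCm38.p6, the assembly of mm10, and are 0 inside it. Exons and introns were not used here. The promoter table of the same build matched 61 of 77 members with 74 windows of 300 bases; the start site is the base after the first 250. The members, roles and lists were chosen with earlier results of these data known. Named genes were all catalytic and glycogen-targeting members, the 12 other regulatory members with the best worse rank of a region, the 5 with most regions within 50 kb (ties in alphabetical order), the 3 on each side of 10 kb and up to 4 genes per list; other members are named after their values were seen. No test was run, since there is 1 group without a control. Alternatives covered the distance for sharing, the score, the list length, gene ends only, the nearest gene only, each replicate alone and the class of some members. The counting was tested on simulated data. Python 3.11.15, numpy 2.4.6, pandas 2.3.3, scipy 1.17.1 and matplotlib 3.10.9 were used.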

Additional observations from a re-analysis of the deposited data

How the results depend on the processing

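Of 45 other settings tried on 6 counts (members within 1, 10 and 50 kb, and catalytic, regulatory and glycogen-targeting genes within 10 kb), single replicates aside, 39 stayed within 1.5 times the reported count. The other 6 all made the condition stricter and lowered the count. Members within 1 kb dropped from 27 to 17 with sharing at 50 bp (22.1%, against 14.2% of all genes). With the 10000 best-scored summits of each list they dropped to 13 (16.9%, against 11.5%). From gene ends only they dropped to 16 (20.8%, against 8.73%). With the 10000 best, members within 10 kb dropped from 32 to 19 (24.7%, against 15.9% of all genes). Regulatory genes dropped from 23 to 13 (19.7%), near the 15.9% of all genes. Catalytic genes also dropped with the 10000 best, from 9 to 6 of 11 (54.5%), which is at the limit of 1.5 times and so among the 39. With sharing at 50 bp they dropped to 7 (63.6%, against 19.8% of all genes). Giving each region to its nearest gene only lowered the members within 50 kb from 54 to 29 (37.7% of the 77, against 23.4% of all genes). Some of the 39 could not have moved. The glycogen-targeting count was 0 and cannot fall under a stricter condition. Leaving out Ppp1ccb or changing its class cannot change a count, since it had no summit within 10 kb. With summits of replicate 1 alone in place of shared regions, 38 members (49.4%) had one within 1 kb, against 35.1% of all genes. Within 10 kb there were 47 (61.0%, against 46.4%) and within 50 kb 65 (84.4%, against 70.2%). With replicate 2 alone the counts were 34 (44.2%, against 36.8%), 40 (51.9%, against 49.2%) and 66 (85.7%, against 73.4%). From 1 replicate alone, 9 to 11 catalytic, 31 to 36 regulatory and 1 glycogen-targeting gene had a summit within 10 kb. The share of all genes within 10 kb was then 46.4% to 49.2%. In replicate 2 alone the regulatory share was 47.0%, below that of all genes. Leaving out the PP2A scaffold genes gave 22 of 64 regulatory genes. Shared regions per Mb of members were 7.43 in gene bodies, 9.68 at 1 kb and 8.33 at 50 kb. For all protein-coding genes the values were 4.18, 5.04 and 4.51 in the same order. The core AAAGTCC, added after seeing the data, was in 2 of 74 member windows (2.70%), against 4.15% of all windows. It was in 0 of the 10 member windows holding a shared region. No paired analysis was possible because there is only 1 group. With 2 libraries and no control, how many summits mark Hnf4a binding is unknown.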

Other observations

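A word picked from the sequences of the 10 member windows holding a shared region, CTACAANTC, was counted on both strands. It was in 399 of 21263 promoter windows (1.88%), in 57 of 1070 windows holding a shared region (5.33%) and in 3 of the 10 member windows holding one, those of Ppp1r12b, Ppp6c and Ppp1r13l. The count in these 10 windows is no support for the word, since it was chosen on them. The other 64 member windows had none. The word CCGGAAG, which belongs to ETS factors, was in 11.6% of all windows and 21.5% of windows holding a shared region. Among members it was in 10.8% of the windows and in 1 of the 10 holding a region. The word CCAAT, of NF-Y, was in 38.2%, 54.4%, 31.1% and 2 of 10, in the same order. These words were added after seeing the data, and no test was run on them.

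Several regions counted for members lay at or in a neighbouring gene. Beyond those named above, the region 34646 bp from Ppp1r9b lay 173 bp from Pdk2, a pyruvate dehydrogenase kinase gene, and 1 of the regions of Ppp1r13l within 50 kb lay inside the DNA repair gene Ercc1. The region 23087 bp from Ppp2r1b lay inside Sik2, a salt-inducible kinase gene, and that 16368 bp from Ppp1r9a inside the paraoxonase gene Pon1.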
